A study of Mus musculus with 4 samples.

Results

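Lymphotoxin β and the NF-κB genes that act downstream of it were examined in mouse embryoid bodies (EBs) with and without the *Gm11549* promoter. They make up 9 of the 24347 gene rows measured: the ligand gene *Ltb*, its partner *Lta*, the receptor gene *Ltbr*, the kinase gene *Map3k14*, the NF-κB subunit genes *Nfkb1*, *Nfkb2*, *Rela* and *Relb*, and the inhibitor gene *Nfkbia*. *Ltb* was selected on its values in these same 4 samples, because it had a very large decrease in the promoter KO, so its values are a description and no p is given for it. The other 8 genes were chosen by their role, as partner, receptor or downstream NF-κB gene.

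The study examined how *Gm11549*, a Nodal-responsive gene that encodes a micropeptide called NEMEP, acts when mouse embryonic stem cells (mESCs) form mesendoderm, the common precursor of mesoderm and endoderm. RNA-seq was done on EBs, aggregates in which mESCs differentiate, at day 3, with 2 WT samples and 2 samples labelled NEMEP promoter-KO (here promoter KO). Both genotypes are mESCs of strain 129/Ola that were moved from gelatin-coated to bacterial plates in serum medium without LIF, the factor that holds them in the pluripotent state, and no other agent was added. In the promoter KO, CRISPR/Cas9 had removed the promoter of *Gm11549*, and clones were grown from single cells. The study calls the samples of a genotype biological replicates, and the labels do not say whether promoter KO 1 and promoter KO 2 are different clones. Values are FPKM, fragments scaled by transcript length and library size, and pairs of values are given with the sample numbered 1 first. The libraries were estimated to hold 20040000 to 24630000 fragments.

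Lymphotoxin β is a membrane protein of the tumour necrosis factor (TNF) family. It holds lymphotoxin α at the cell surface in a mixed trimer, which binds the lymphotoxin β receptor, and the pathway is best known for building lymph nodes and other lymphoid tissue. The receptor releases the kinase NIK, product of *Map3k14*, from degradation, and NIK drives the processing of the *Nfkb2* precursor into a subunit that pairs with RelB, the non-canonical branch of NF-κB signalling. In the canonical branch, dimers such as RelA with the *Nfkb1* product are freed when the inhibitor IκBα, encoded by *Nfkbia*, is degraded.

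*Gm11549*, the targeted gene on chromosome 3, was checked first. It had 0.750 and 0.522 FPKM in the WT pair and 0 and 0.0659 FPKM in the KO pair. The promoter KO values were under both WT values, which fits the labels. The 4 values were worth about 48.6 and 30.1 fragments in WT and 0 and 3.47 in the promoter KO. The labels call the cells ES-derived mesendoderm cells. All 9 mesendoderm markers on a list of transcription factor genes passed the filter of at least 1 FPKM in at least 2 samples, and their values summed to 790 and 1024 FPKM in WT 1 and WT 2. The pluripotency factor gene *Pou5f1* was higher than any of them in every sample, at 1499 and 1188 FPKM in WT and 1522 and 1545 in the promoter KO, so RNA of a pluripotency gene was present beside that of the mesendoderm genes.

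*Ltb* RNA was abundant in WT EBs and close to absent in the promoter KO. *Ltb* lies on the plus strand of chromosome 17 (chr17:35194439-35196320 in GRCm38, protein coding). Its level was 26.1 FPKM (WT 1), 40.1 (WT 2), 0.371 (promoter KO 1) and 1.79 (promoter KO 2). WT and promoter KO stood far apart, and the lower WT sample was still many times above the higher promoter KO sample. The mean was 33.1 ± 9.88 FPKM in WT and 1.08 ± 1.00 in the promoter KO (SD, n = 2 each), 3.26% of the WT mean. On the scale of log2(FPKM + 1), on which all differences here are given and which understates changes of low genes, the difference of means, promoter KO minus WT, was -4.09 with a pooled SD of 0.59. Among the 11941 genes past the filter only *Mesp1*, at -4.14, had a more negative value, and *Aplnr* came next at -3.12. Taking its longest transcript, the *Ltb* values were worth roughly 784 and 1070 fragments in WT and 9.74 and 43.6 in the promoter KO. The EBs were sequenced in bulk, and fewer cells with *Ltb* RNA cannot be told apart from less *Ltb* RNA per cell.

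**Figure D1:**
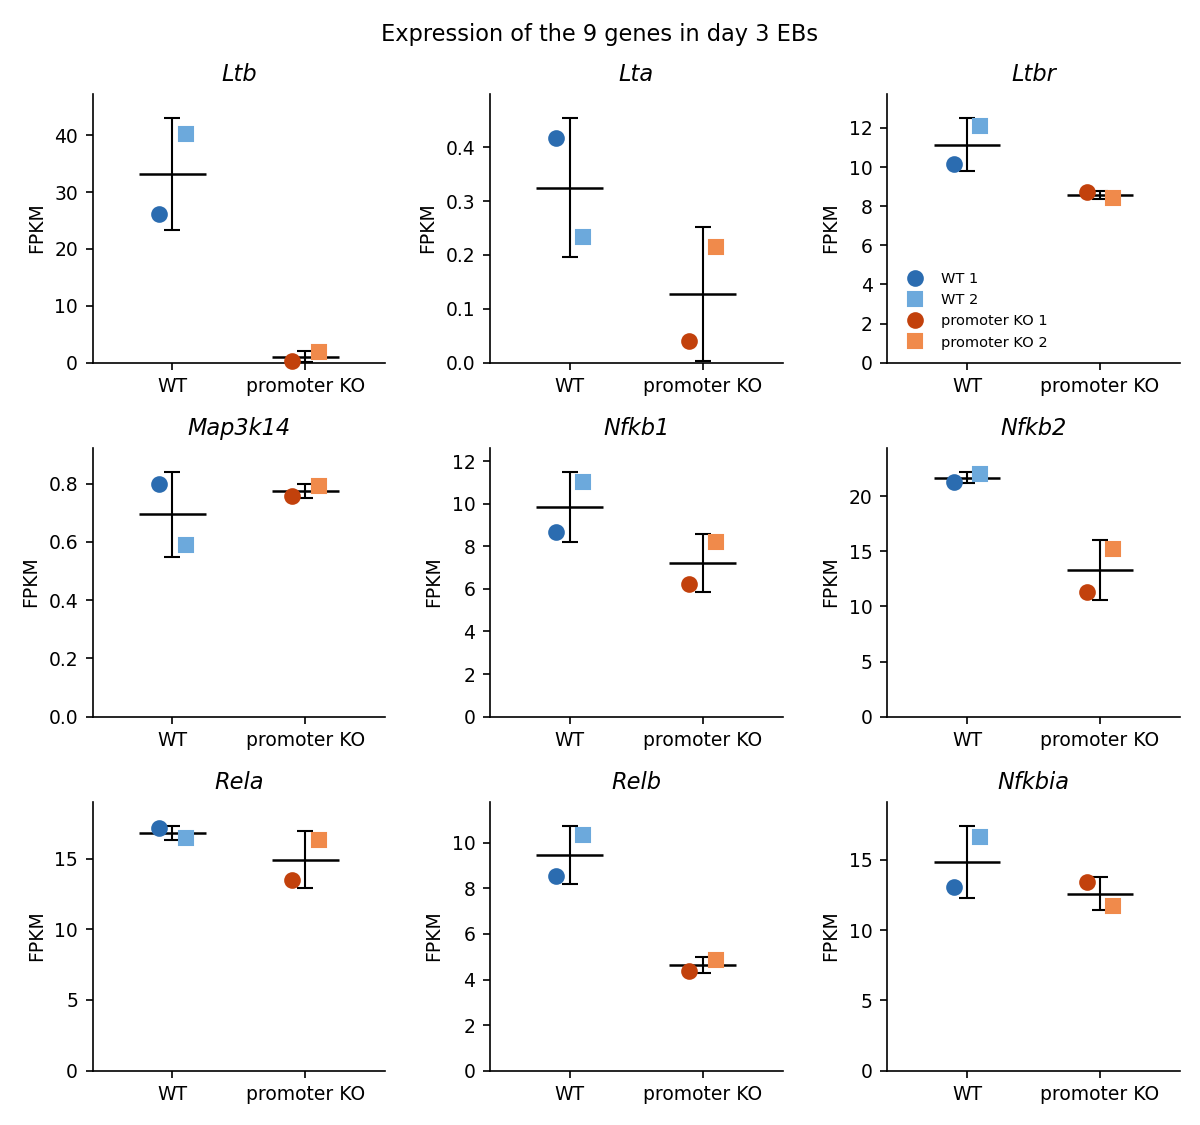
FPKM of each of the 9 genes in the WT samples (blue) and the promoter KO samples (orange), 1 panel per gene with its own axis from 0. Circles are samples numbered 1 and squares samples numbered 2, and black lines and bars give the mean and SD of the 2 samples. *Ltb* drops from 26.1 and 40.1 FPKM to 0.371 and 1.79, *Relb* and *Nfkb2* stand apart by less, and *Map3k14* and *Nfkbia* overlap.

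The ligand's partner was scarce in every sample. *Lta*, which encodes lymphotoxin α and lies next to *Tnf* on the minus strand of chromosome 17, was read at 0.416 FPKM (WT 1), 0.233 (WT 2), 0.0396 (promoter KO 1) and 0.215 (promoter KO 2). Both promoter KO values were below both WT values, but WT 2 and promoter KO 2 nearly met. These values correspond to about 12.1, 6.05, 1.01 and 5.09 fragments, and *Lta* did not pass the filter. An exact permutation test over 2 and 2 samples has 6 arrangements and cannot give a two-sided p below 0.333, the value it gave for *Lta*. In WT EBs, where *Ltb* averaged 33.1 FPKM, *Lta* thus averaged 0.325 ± 0.129 FPKM (SD, n = 2).

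The receptor gene was read in both genotypes. *Ltbr* measured 10.2 and 12.1 FPKM in WT EBs and 8.72 and 8.41 in EBs without the promoter. The promoter KO samples were close together and below both WT samples. The log2 fold change was -0.34 (SE 0.131, 95% interval -0.66 to -0.02), which did not pass after correction (limma adjusted p = 0.150). In WT the ligand gene was above the receptor gene, with an *Ltb* to *Ltbr* ratio of 2.57 and 3.31, and in the promoter KO it was far below, with ratios of 0.0426 and 0.212.

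*Map3k14*, the gene of the kinase NIK, stayed under the filter. It had 0.797 and 0.591 FPKM in the WT pair and 0.759 and 0.792 FPKM in the KO pair. The groups overlapped, with WT 2 the lowest sample and WT 1 the highest, and the exact two-sided permutation p was 1. NIK is held low mainly by protein degradation, which RNA does not report.

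The genes of the non-canonical subunits were both lower in the promoter KO samples, and *Relb* passed the test. *Relb*, on chromosome 7, was read at 8.55 FPKM (WT 1), 10.4 (WT 2), 4.38 (promoter KO 1) and 4.87 (promoter KO 2). Both promoter KO samples had a value well under that of either WT sample, with a mean of 4.63 ± 0.351 FPKM against 9.46 ± 1.28 (SD, n = 2 each). *Relb* fell by 0.89 on the log2 scale (SE 0.146, limma adjusted p = 0.0434), with the promoter KO mean at 48.9% of WT. That call was narrow: the adjusted p was 0.0684 without WT 1, 0.214 without WT 2, 0.182 without promoter KO 1 and 0.0615 without promoter KO 2, and it was also above 0.05 with no filter (0.144), with a mean of at least 5 FPKM required (0.05002) and without limma's intensity trend (0.0624), in a range of 0.0442 to 0.214 over the 10 alternatives with genotype as the only term. The log2 fold change stayed between -1.02 and -0.76 in all 11 alternatives.

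*Nfkb2*, which encodes the precursor that NIK acts on, was the most abundant of the 4 subunit genes in WT. It measured 21.3 and 22.1 FPKM in WT EBs and 11.3 and 15.2 in EBs without the promoter. WT values were close to each other, and both promoter KO values were lower, promoter KO 1 the more so. The log2 fold change of -0.68 (SE 0.151, 95% interval -1.05 to -0.31) missed the threshold (limma adjusted p = 0.0613). With the replicate number as a block the limma adjusted p was 0.038, but nothing in the labels says that the samples were paired. Without promoter KO 2 the adjusted p was 0.0432, in a range of 0.0432 to 0.267 over the 10 alternatives with genotype as the only term. On the other strand, exons of *Nfkb2* share 531 bases with a long non-coding RNA annotated as bidirectional promoter RNA and 299 bases with *Psd*. Whether counting used strand is not given in the sources used here, so fragments there could belong to any of these genes. *Psd* itself had 1.08 and 1.12 FPKM in WT and 0.667 and 0.665 in the promoter KO.

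Neither canonical subunit gene passed the test. *Rela* had 17.2 and 16.5 FPKM in the WT pair and 13.5 and 16.4 FPKM in the KO pair. WT 2 and promoter KO 2 were almost equal, and only promoter KO 1 stood lower. The log2 fold change was -0.17 (SE 0.127, 95% interval -0.48 to 0.14, limma adjusted p = 0.395). *Nfkb1* was read at 8.68 FPKM (WT 1), 11.0 (WT 2), 6.25 (promoter KO 1) and 8.19 (promoter KO 2), with the 2 genotypes meeting closely at WT 1 and promoter KO 2. Its log2 fold change was -0.40 (SE 0.177, 95% interval -0.83 to 0.03, limma adjusted p = 0.186).

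*Nfkbia* encodes the inhibitor IκBα and is itself a well-known target of NF-κB. It measured 13.0 and 16.7 FPKM in WT EBs and 13.4 and 11.7 in EBs without the promoter. The groups overlapped, since promoter KO 1 was above WT 1. The log2 fold change was -0.22 (SE 0.151, 95% interval -0.58 to 0.15, limma adjusted p = 0.365).

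Of the 8 genes chosen by role, 6 passed the filter, all of them with at least 1 FPKM in every sample, and *Lta* and *Map3k14* did not. By limma's adjusted p, 1 of the 6 was lower (*Relb*) and 0 were higher, where 1.89% and 1.68% of all 11941 tested genes were lower and higher. Where limma's p was left unadjusted (under 0.05), 3 of the 6 were lower (*Ltbr*, *Nfkb2* and *Relb*) and 0 higher, against 15.6% and 15% of all tested genes. Both promoter KO samples were below both WT samples for 5 of the 6 and above for 0, with 1 overlapping, against 32.4% below and 32.9% above over all tested genes. The 6 had a median log2 fold change of -0.37, and all tested genes one of 0.00. These shares are small counts of genes that act in a single pathway, and they were not tested as a group.

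The balance between the subunit genes was read as ratios within each sample. The ratio of *Relb* to *Rela* FPKM was 0.498 and 0.629 in WT and 0.325 and 0.298 in the promoter KO. Both promoter KO samples had less *Relb* per *Rela* than either WT sample, at 55.3% of the WT mean, and the exact permutation p was 0.333, the smallest this design allows. The ratio of *Nfkb2* to *Nfkb1* was 2.46 and 2.00 in WT and 1.82 and 1.86 in the promoter KO, again lower in both promoter KO samples but by less than the gap between the WT samples (exact permutation p = 0.333).

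Ordered by mean FPKM in WT, *Ltb* came first (33.1), followed by *Nfkb2* (21.7), *Rela* (16.8), *Nfkbia* (14.8), *Ltbr* (11.1), *Nfkb1* (9.84), *Relb* (9.46), *Map3k14* (0.694) and *Lta* (0.325). Among neighbours in that order, the sample values of *Rela* and *Nfkbia*, of *Ltbr* and *Nfkb1* and of *Nfkb1* and *Relb* overlapped, and the other neighbours were separate. In the promoter KO *Rela* came first (14.9 FPKM), then *Nfkb2* (13.3), *Nfkbia* (12.6), *Ltbr* (8.57), *Nfkb1* (7.22) and *Relb* (4.63). *Ltb* had moved to seventh place there with 1.08 FPKM, overlapping *Map3k14* (0.775) and above *Lta* (0.127). There *Rela* overlapped *Nfkb2* and *Nfkb2* overlapped *Nfkbia*, and the neighbours from *Nfkbia* down to *Ltb* were separate, as were *Map3k14* and *Lta*.

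Promoter sequences are shown for *Ltb*, *Nfkb2*, *Nfkbia* and *Tnip1*, which hold a match to the NF-κB motif (κB). *Ltb* was selected by its decrease, and *Tnip1*, *Eda2r* and *Cxcl12* were searched as pathway genes with a call. The direction of these genes was thus known before the search, and a link between a match and a direction was not tested. RefSeq promoter windows (GRCm38.p6, 250 bases before to 50 after the start) were matched by symbol to 7 of the 9 genes, all but *Nfkb1* and *Relb*, and searched on both strands for the 10-base κB consensus. A match was found in 3 of the 7 genes (*Ltb*, *Nfkb2*, *Nfkbia*), where 5.14% of all 27025 genes with a window had one. Counted by window it was 5 of 9, including all 3 of *Nfkb2*, against 4.51% of all 32851 windows. The windows of *Lta*, *Ltbr*, *Map3k14* and *Rela*, and those of *Tnf*, *Eda2r* and *Cxcl12*, held none. Of these genes, *Lta*, *Ltbr*, *Rela* and *Tnf* were lower in both promoter KO samples than in both WT samples. The same held for *Ltb*, *Nfkb2* and *Tnip1* among the genes with a match. *Map3k14* overlapped, and *Eda2r* and *Cxcl12* were higher. Capitals mark the matched bases, and each sequence runs 5′ to 3′ on the gene's own strand. The *Ltb* stretch (chr17:35194370-35194438, plus strand) ends just before the first annotated exon, with its match 87 to 78 bases before the RefSeq start. The *Nfkb2* stretch (chr19:46304689-46304718, plus strand) is 30 bases long, with its match at 39 to 29 bases before the start of the first of 3 windows, inside an exon of a longer transcript, and a further match lies at 11 to 2 bases before that start. The *Nfkbia* stretch (chr12:55492648-55492726, minus strand) has its match at 29 to 20 bases before the start, and that of *Tnip1* (chr11:54962941-54963048, minus strand) holds overlapping matches at 58 to 47 bases.
Ltb: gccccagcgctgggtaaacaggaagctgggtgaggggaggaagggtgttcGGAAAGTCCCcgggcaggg
Nfkb2: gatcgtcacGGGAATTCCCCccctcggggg
Nfkbia: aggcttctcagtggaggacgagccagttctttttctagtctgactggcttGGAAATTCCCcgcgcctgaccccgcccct
Tnip1: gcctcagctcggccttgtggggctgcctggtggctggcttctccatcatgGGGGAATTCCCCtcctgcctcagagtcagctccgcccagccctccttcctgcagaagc
A match describes letters in a window and does not show that NF-κB binds there in EBs. *Nfkbia* holds one although its groups overlapped.

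In the wider pathway few genes passed the test, and those that did went in both directions. Over 6 lists (TNF-family ligands, TNF-family receptors, non-canonical and canonical NF-κB regulators, NF-κB subunits and inhibitors, and NF-κB target genes), 95 genes other than *Ltb* were listed, 54 passed the filter and 10 were at 0 in all 4 samples. By limma's adjusted p, 2 of the 54 were lower and 2 higher (3.7% each), against 1.89% and 1.68% of all tested genes. At an unadjusted p under 0.05, 11 were lower and 6 higher (20.4% and 11.1%, against 15.6% and 15% of all). The median log2 fold change was -0.07, and it was 0.00 over the 48 tested genes that are not among the 9. For 44 of the 54 the 95% interval lay between -1 and 1.

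The genes called lower were *Relb*, described above, and *Tnip1*, whose product ABIN-1 restrains NF-κB signalling. *Tnip1* had 22.5 and 23.1 FPKM in the WT pair and 12.7 and 14.5 FPKM in the KO pair. Samples of a genotype were close and the genotypes did not overlap. *Tnip1* fell by 0.70 on the log2 scale (SE 0.112, limma adjusted p = 0.0418). *Eda2r*, which encodes a TNF-family receptor for a form of ectodysplasin, was read at 6.63 FPKM (WT 1), 5.16 (WT 2), 17.7 (promoter KO 1) and 14.9 (promoter KO 2). Both promoter KO samples were well above either WT sample, and *Eda2r* rose by 1.33 (SE 0.158, limma adjusted p = 0.0305). The chemokine gene *Cxcl12* measured 21.1 and 18.9 FPKM in WT EBs and 30.8 and 31.8 in EBs without the promoter. It rose by 0.62 (SE 0.102, limma adjusted p = 0.0434), again without overlap.

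These calls depended on single libraries. Without WT 2 or without promoter KO 1 none of the 54 genes passed limma's adjusted p, with 8 and 13 at an unadjusted p under 0.05, and 2 passed without WT 1 and 3 without promoter KO 2. Over the fits that leave out a sample, the adjusted p ranged from 0.0478 to 0.214 for *Tnip1*, from 0.0395 to 0.141 for *Eda2r* and from 0.0685 to 0.216 for *Cxcl12*, with the direction kept in each.

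By role, the same 4 calls recur, *Relb* on 3 lists and *Tnip1* on 2, and the shares over all tested genes were 1.89% lower and 1.68% higher by limma's adjusted p. The tested TNF-family ligand genes other than *Ltb* (4 of the 17 listed) held 0 calls, with a median log2 fold change of 0.09. At an unadjusted limma p under 0.05, 1 of the 4 was higher (*Tnfsf11*), against 15% of all tested genes. *Tnfsf11* reached 1 FPKM in the promoter KO samples only, so it passed the filter through the group where it was high. Of the 12 tested receptor genes 1 was higher (*Eda2r*) and none lower, with a median of 0.00. Of 8 tested non-canonical regulators 1 was lower (*Relb*), with a median of -0.14, and of 18 canonical regulators 1 was lower (*Tnip1*), with a median of -0.03. Of 10 subunits and inhibitors 1 was lower (*Relb*), with a median of -0.19. The 15 tested target genes had 2 lower (*Relb*, *Tnip1*) and 1 higher (*Cxcl12*), with a median of -0.30, and 6 of the 26 listed targets were at 0 in every sample. *Tnfrsf1a*, the main TNF receptor gene, came nearest to a call among the receptors that were lower. It was chosen after its values were seen, and it had 11.6 and 16.4 FPKM in the WT pair and 6.95 and 6.43 FPKM in the KO pair (log2 fold change -0.95, SE 0.179, limma adjusted p = 0.0509).

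**Figure D2:**
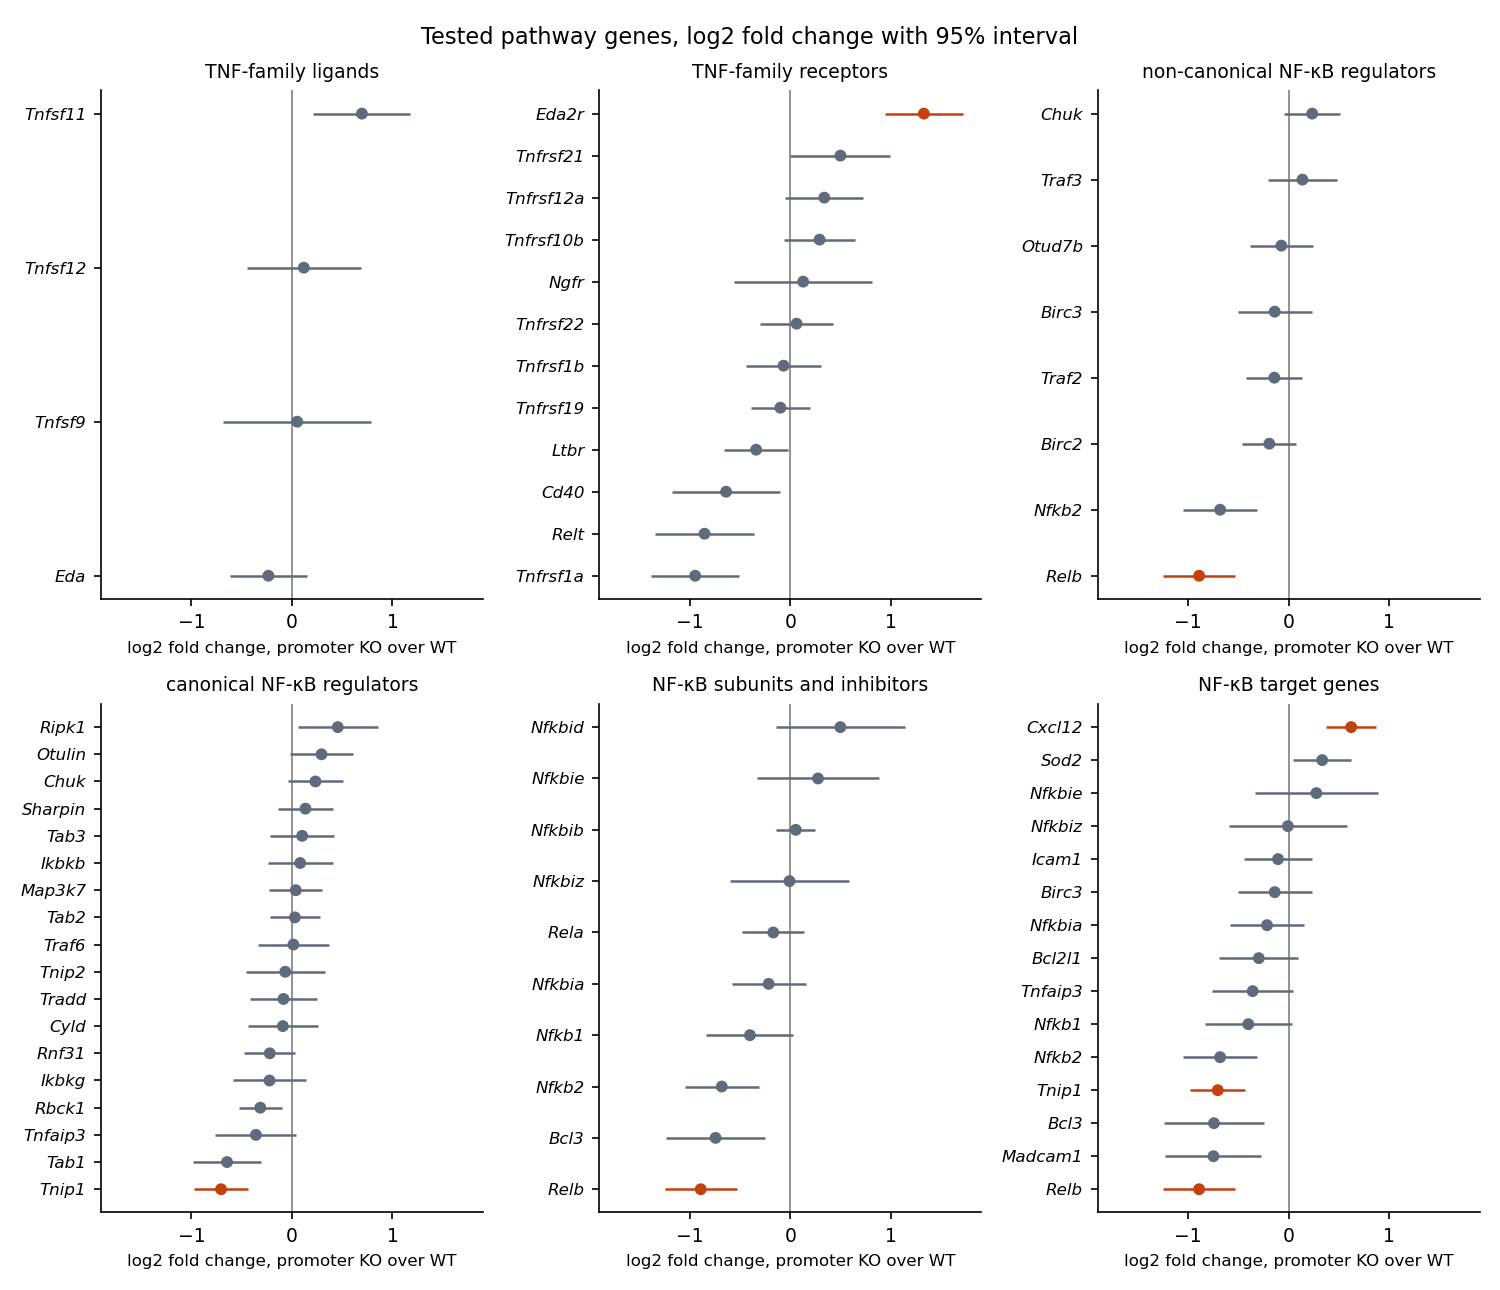
Log2 fold change (promoter KO over WT, on log2(FPKM + 1)) of the 54 tested pathway genes with limma's 95% interval, 1 panel per list, a gene appearing in each list that holds it and *Ltb* left out. Orange marks an adjusted p under 0.05, namely *Relb* and *Tnip1* to the left of 0 and *Eda2r* and *Cxcl12* to the right.

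*Ltb* lies in the TNF gene cluster of the major histocompatibility region, and its neighbours were looked at for the same contrast. *Tnf*, 3062 bases beyond the end of *Ltb* and on the other strand, was read at 0.759 FPKM (WT 1), 0.536 (WT 2), 0 (promoter KO 1) and 0.0347 (promoter KO 2). It was present at a low level in both WT samples and at or near 0 in both promoter KO samples, with values worth about 26.9, 16.9, 0 and 0.999 fragments. *Lst1*, 6067 bases away on the other side, had 0.447 and 0.487 FPKM in WT and 1.57 and 0.599 in the promoter KO. Its promoter KO samples were above the WT samples, at values worth 7.29 fragments or fewer. Neither gene passed the filter, and *Lta*, 6860 bases away, did not either.

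Of 27 other RefSeq genes within 100 kb of *Ltb*, 21 are in the files and 10 passed the filter. By limma's adjusted p 0 of these 10 were called, and 3 had an unadjusted p under 0.05, with 2 lower and 1 higher, at a median log2 fold change of -0.10. Over all tested genes 15.6% were lower and 15% higher at that p, so 3 of 10 is near the share of all genes. These 3 are named after their values were seen. *Nfkbil1*, named for its likeness to the NF-κB inhibitors, had 10.2 and 10.8 FPKM in WT and 6.48 and 6.70 in the promoter KO (log2 fold change -0.60, limma adjusted p = 0.0543), and 144 of its exon bases are shared with *Atp6v1g2* on the other strand. The class I histocompatibility gene *H2-D1* had 36.4 and 35.4 FPKM in WT and 27.0 and 32.2 in the promoter KO, and the apolipoprotein gene *Apom* 1.17 and 0.464 in WT and 1.73 and 2.84 in the promoter KO. Both promoter KO samples were below both WT samples for 5 of the 10 and above for 1, and 4 overlapped, against 32.4% below and 32.9% above over all tested genes.

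**Figure D3:**
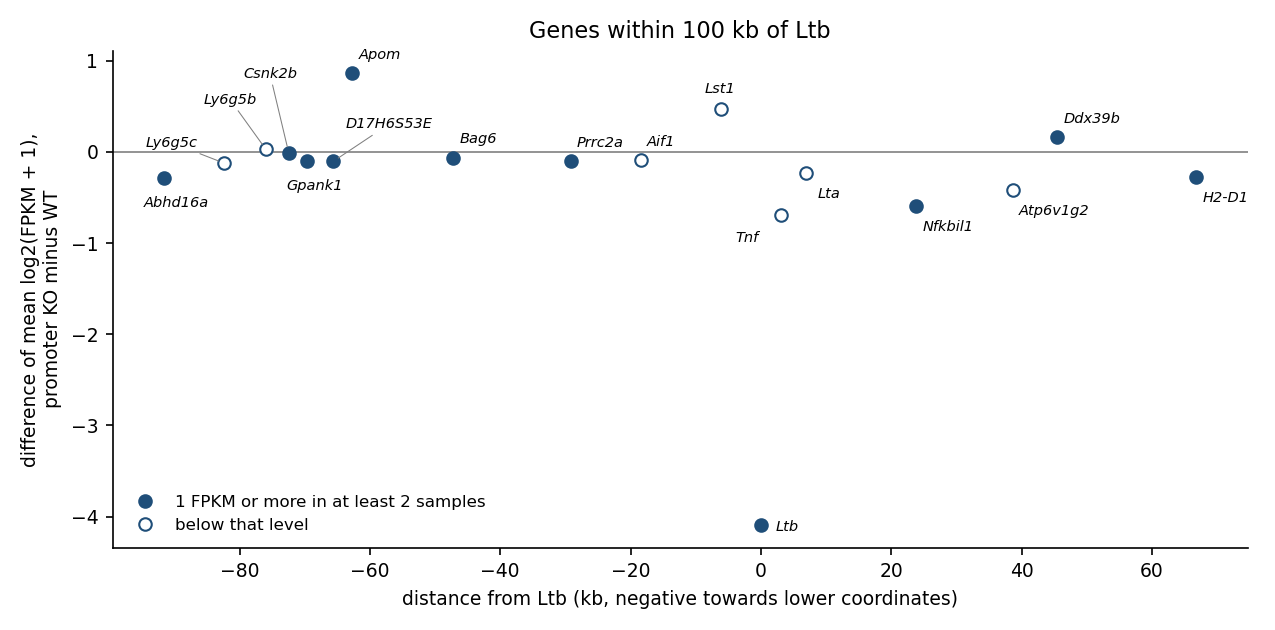
Difference of mean log2(FPKM + 1), promoter KO minus WT, of genes within 100 kb of *Ltb* that had a value above 0 in any sample, against their distance from *Ltb* in kb. Filled points had at least 1 FPKM in at least 2 samples and open points did not. *Ltb* stands at -4.09, *Tnf* and *Nfkbil1* are the next lowest, and *Apom* is the highest. Genes under 1 FPKM can move only little on this scale. The *Tnf* mean in the promoter KO was 2.68% of the WT mean, on few fragments.

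The 5 tested genes whose pattern over the 4 samples was most like that of *Ltb*, by Euclidean distance between log2(FPKM + 1) values centred on each gene's mean, were *Mesp1* (distance 0.975), *Lhx1* (1.09), *Aplnr* (1.23), *Mixl1* (1.40) and *Frzb* (1.40), where the median distance over all tested genes was 4.19. *Mesp1*, *Lhx1* and *Mixl1* are transcription factor genes of the primitive streak and early mesendoderm, *Aplnr* encodes the apelin receptor and *Frzb* a secreted Wnt antagonist. *Mesp1* measured 27.0 and 100.7 FPKM in WT EBs and 0.759 and 4.24 in EBs without the promoter. *Lhx1* had 45.5 and 59.9 FPKM in WT and 4.07 and 7.21 in the promoter KO, and *Mixl1* 63.0 and 76.3 in WT and 5.56 and 15.9 in the promoter KO. Like *Ltb*, each of the 5 was highest in WT 2 and lowest in promoter KO 1. The measure rests on 4 samples and on the contrast that chose *Ltb*, and says nothing of shared control. It is not scaled for the size of a change. The 5 genes were also those with the most negative differences besides *Ltb* (ranks 1 and 3 to 6 among tested genes). Their nearness thus restates the size of their decrease, and the median distance of 4.19 is close to the size of the *Ltb* difference (-4.09).

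**Figure D4:**
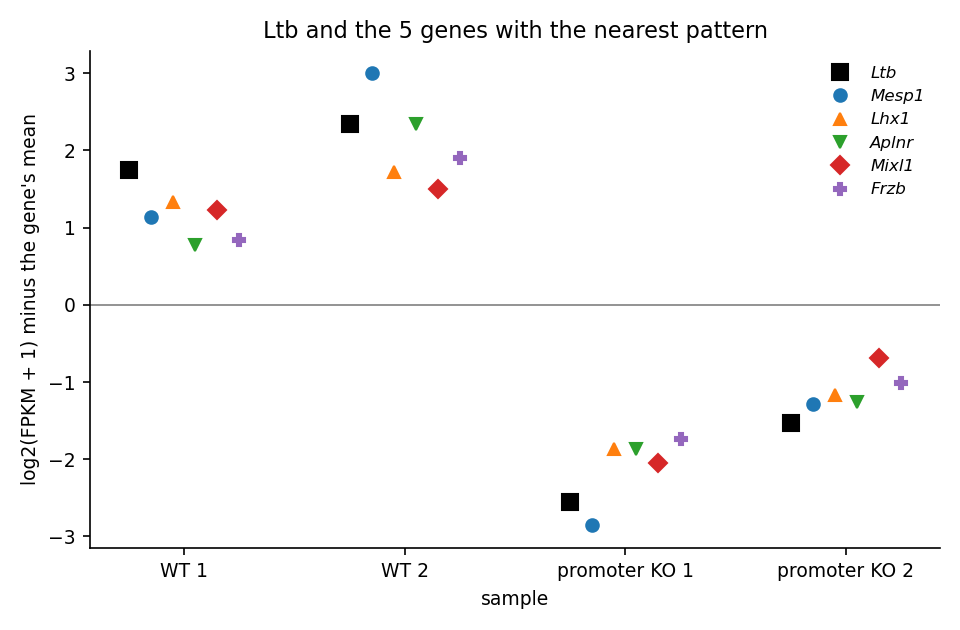
Log2(FPKM + 1) minus the gene's mean over the 4 samples, for *Ltb* (black squares) and the 5 genes with the nearest pattern, in each sample. All 6 genes lie above 0 in WT 1 and WT 2 and below 0 in promoter KO 1 and promoter KO 2, with the lowest values in promoter KO 1.

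Markers of several cell types differed between the genotypes, mesendoderm markers downwards and extraembryonic endoderm markers mostly upwards. Of the 9 mesendoderm markers 6 were lower by limma's adjusted p and 0 higher, against 1.89% and 1.68% of all tested genes. The 9 had a median log2 fold change of -2.33, and their sum was 790 and 1024 FPKM in WT and 152 and 320 in the promoter KO. The most abundant by mean over the 4 samples were *T*, with 306 and 448 FPKM in WT and 50.5 and 127 in the promoter KO, *Eomes*, with 166 and 168 against 56.3 and 97.1, and *Foxa2*, with 76.5 and 39.0 against 19.7 and 37.5. These 3 were not among the 6 (limma adjusted p = 0.0509, 0.0547 and 0.154). Promoter KO 1 had the lower sum of the mesendoderm markers and the lower *Ltb* and *Relb* values, while *Ltbr* and *Nfkbia* were higher there than in promoter KO 2. An order of 2 samples cannot show a relation, and none was tested. Of 12 tested extraembryonic endoderm markers, out of 13 listed, 8 were higher and 1 lower, against 1.68% and 1.89% of all tested genes. Of the 8, *Sox7* and *Cubn* reached 1 FPKM in the promoter KO samples only. They passed the filter only through the group where they were high. The tested markers of this list had a median of 1.61 with both included. All 13 summed to 250 and 263 FPKM in WT and 335 and 425 in the promoter KO. Their most abundant genes were *Fst*, which was the 1 called lower (138 and 116 FPKM in WT, 58.8 and 76.1 in the promoter KO), *Sparc*, with 46.0 and 59.3 FPKM in WT and 111 and 134 in the promoter KO, and *Lamb1*.

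None of the 9 pluripotency markers passed limma's adjusted p. At an unadjusted p under 0.05, 4 were higher and 1 lower, against 15% and 15.6% of all tested genes. The 9 markers had a median log2 fold change of 0.76. They summed to 1775 and 1502 FPKM in WT and 1995 and 1877 in the promoter KO, most of it from *Pou5f1*. Next in abundance were *Sox2* and *Nanog*, which went in opposite directions. *Sox2* had 88.4 and 102 FPKM in WT and 200 and 129 in the promoter KO. *Nanog*, the 1 lower, had 140 and 113 FPKM in WT and 94.1 and 98.7 in the promoter KO. All marker calls come from the fit in which leaving out WT 2 or promoter KO 1 left 0 calls over all tested genes by limma's adjusted p, with 1875 and 2009 genes at an unadjusted p under 0.05. The part of these marker changes in the values of *Ltb*, *Relb* and the other pathway genes was not tested.

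Lymphotoxin β is best known from lymphocytes, so markers of blood cells were read too. None of the 10 lymphoid markers reported here passed the filter, and they summed to 1.16 and 1.00 FPKM in WT and 1.12 and 1.06 in the promoter KO, led by *Cd79a* and *Cd79b*. Of the other 8, *Cd3g*, *Il7r* and *Klrb1c* were at 0 in all 4 samples, and *Ptprc*, *Cd3e*, *Cd4*, *Cd8a* and *Ms4a1* were read in some samples at 0.0538 FPKM or less. Of 7 myeloid markers 2 passed the filter and 0 were called (0 at an unadjusted p under 0.05 as well), with sums of 7.40 and 8.97 FPKM in WT and 8.62 and 11.7 in the promoter KO that came mostly from *Cd68*, a lysosomal gene, followed by *Spi1*. *Itgam* had 0.0447 and 0.0302 FPKM in WT and 0.224 and 0.110 in the promoter KO. Of the other 4, *Adgre1* was at 0 throughout, and *Csf1r*, *Lyz2* and *Fcgr1* were read in some samples at 0.107 FPKM or less.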

How the data were processed

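RNA-seq values of 4 samples of day 3 EBs (2 WT, 2 promoter KO) were used, grouped by genotype as the labels give it. The values the authors deposited were taken as FPKM, 1 file per sample, already scaled for transcript length and library size. The paper's methods name TopHat, Cufflinks and Cuffdiff on mm10 with RPKM as the unit, while the submitters' processing notes name HISAT2 2.1.0, Cufflinks and Cuffnorm. Read counts were not used here.

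The 11941 of 24347 genes that reached 1 FPKM in 2 or more samples were tested on log2(FPKM + 1) with limma 3.58.1 in R 4.3.3 (lmFit, eBayes with an intensity trend, 3.99 prior degrees of freedom), two-sided, with Benjamini-Hochberg adjustment over all of them and calls at an adjusted p under 0.05. *Ltb* was part of this fit and of its counts over all genes, but its p is not reported, because its decrease chose it. Below the filter, and for ratios, exact permutation tests over samples were used. Positions, exon overlaps and fragment estimates come from GENCODE (GRCm38), neighbours and promoters from RefSeq (GRCm38.p6). Depth was estimated from the value 1 fragment is worth in single-transcript genes, assuming fragments of 200 bases, and fragment numbers of genes with several transcripts are approximate. The κB consensus searched reads GGG, a purine, any base, A or T, a pair of pyrimidines and CC. Python 3.11.15 was used with pandas 2.3.3, numpy 2.4.6 and, for figures, matplotlib 3.10.9.

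The genes and lists were chosen with earlier results of these data known. Genes named are the 9 members, pathway genes with a call, *Tnf* and *Lst1*, *Gm11549*, the most abundant genes of each marker list by mean over the 4 samples (2 lymphoid, 3 each of myeloid, mesendoderm, pluripotency, extraembryonic endoderm) and the 5 genes nearest to *Ltb* in pattern. Some further lymphoid markers are not reported here. Others named were chosen after their values were seen or as defining markers. Alternatives were another pseudocount, filter, variance trend and scaling, the replicate number as a block, and each sample left out.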

Additional observations from a re-analysis of the deposited data

How the results depend on the processing

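For the 6 tested genes chosen by role and for *Tnip1*, *Eda2r* and *Cxcl12*, the log2 fold change had the same direction under all 11 alternatives, while calls depended on the processing. Over all tested genes, 427 were called (226 lower, 201 higher). The number was 0 with no filter beyond a value above 0 (4059 at an unadjusted p under 0.05), 203 with a mean of at least 5 FPKM, 82 without the intensity trend (27 lower, 55 higher), 283 with median centring (126 lower, 157 higher), and 0 to 486 with 1 sample left out, where the sample alone in its genotype is assumed to vary like the other genotype (0 without WT 2 or promoter KO 1, with 1875 and 2009 at an unadjusted p under 0.05, 175 without WT 1). Of the 8 genes chosen by role 1 was called, against 0 with no filter (2 at an unadjusted p under 0.05), 0 with a mean of 5 FPKM (3), 0 without the trend (3), and 0 to 1 with a sample left out, the 1 being *Nfkb2* without promoter KO 2. Of the pathway genes 4 were called, against 0 with no filter (20 at an unadjusted p under 0.05), 1 without the trend, and 0 to 3 with a sample left out. The cause of these changes was not tested. No neighbour of *Ltb* was called by limma except under the block below. The *Ltb* difference of -4.09 became -5.11 with a pseudocount of 0.1 and -4.94 as a log2 ratio of mean FPKM, which both drops the pseudocount and averages before taking the log, and it ranged from -4.61 to -3.58 with a sample left out.

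Both genotypes number their samples 1 and 2, and nothing in the labels says that a number marks a shared culture. Deviations of same-numbered samples from their group means correlated at 0.0348 across genes, which with 2 pairs does not settle whether they were paired, and the samples were treated as unpaired. With the replicate block, 1202 genes were called (667 lower, 535 higher), 2 of those chosen by role (*Relb*, *Nfkb2*), 10 pathway genes (8 lower, 2 higher) and 1 neighbour. Depth limits *Lta*, *Tnf* and *Lst1*, whose values rest on few fragments.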
